A study of Mus musculus with 6 samples.

Results

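The 36 mitosis and spindle genes described here were chosen as a list of named genes that a cell uses to enter mitosis, build the spindle, separate its chromosomes and divide. They are 36 of the 20687 gene symbols to which the deposited transcripts were summed, and all 36 passed the filter on low counts that left 15212 genes for the test. Their levels were read in 6 mouse RNA-seq libraries, all labelled C57BL/6: 3 of the KP cell line in culture (CellLine_KP) and 3 of whole lung from mice given that line (Lung_KP). For a lung sample, tissue of 3 mice was pooled, with 1 pool from each of 3 separate experiments; the mice had received 100000 KP cells through the tail vein, and the lungs were taken 28 days later. The labels state neither the genotype of the line nor its tumour of origin, there is no tumour-free lung, and the cell line libraries carry the same protocol text as the lungs. The study set out to compare chemokine expression between the line and the tumour-bearing lung. The question asked of the mitotic genes is how their transcript levels differ between the line and that lung, and between the libraries of each group. The labels do not tell whether the 3 cell line preparations were grown apart, and the p-values cover only the variation among these 6 samples, part of which may be technical.

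In a dividing cell, cyclins A and B activate Cdk1, which drives chromosome condensation and breakdown of the nuclear envelope. The kinases Plk1, Aurka and Aurkb, motor proteins of the kinesin family and the outer kinetochore then attach chromosomes to spindle microtubules, and the spindle checkpoint holds back the anaphase-promoting complex until every chromosome is attached. Transcripts of most of these genes are scarce in resting cells and build up in G2 and M phase, which is why they are read as markers of proliferation. Much of that rhythm is attributed to the MuvB complex, which joins B-Myb (Mybl2) and Foxm1 at a short promoter element, the cell cycle genes homology region, often close to CCAAT boxes bound by NF-Y. Healthy adult lung divides little.

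Promoter sequence was held for 29 of the 36 members in the RefSeq table (build GRCm38.p6), as windows from 250 bases before to 50 bases after the annotated start. In 20 of the 29 windows, bases 13 to 32 after the start occurred in a transcript of the gene in that orientation. For the others this was not found, and their positions rest on the annotated start alone. Ccna2, Cdc25c, Aurkb, Incenp, Kif20a, Tpx2 and Foxm1 had no entry. The homology region was searched as TTTGAA or TTCGAA, the CCAAT box as CCAAT and an E2F site as TTTCCCGC, TTTGGCGC, TTTCGCGC or TTTGCCGC, each on both strands, and none of these motifs contains another. The homology region lay in 21 of the 29 member windows (72.4%) and in 19.4% of all 27025 windows of the same length. Within 100 bases before to 50 after the start it lay in 20 members (69.0%) and in 8.68% of all windows. CCAAT was found in 21 members (72.4%) against 37.9% of all, and 2 or more CCAAT boxes in 15 (51.7%) against 12.2%. Both the homology region and CCAAT stood in 18 members (62.1%) and in 7.70% of all windows, while an E2F match was found in 1 member, Cdk1 (3.45% against 2.32%). The windows of 4 members are printed to show the arrangement and its absence, each from 150 bases before to 30 after the start, 5′ to 3′ on the strand of the gene, with the matches in capitals.
Ccnb2 (chr9:70421525-70421704, minus strand): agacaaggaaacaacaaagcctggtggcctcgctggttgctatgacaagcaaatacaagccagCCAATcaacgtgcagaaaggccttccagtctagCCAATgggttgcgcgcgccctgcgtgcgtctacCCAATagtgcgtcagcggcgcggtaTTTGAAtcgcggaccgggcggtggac
Cdk1 (chr10:69352883-69353062, minus strand): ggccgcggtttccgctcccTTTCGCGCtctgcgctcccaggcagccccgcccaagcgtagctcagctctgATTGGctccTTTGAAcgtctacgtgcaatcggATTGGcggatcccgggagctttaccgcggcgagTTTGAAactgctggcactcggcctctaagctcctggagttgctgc
Cdc20 (chr4:118437314-118437493, minus strand): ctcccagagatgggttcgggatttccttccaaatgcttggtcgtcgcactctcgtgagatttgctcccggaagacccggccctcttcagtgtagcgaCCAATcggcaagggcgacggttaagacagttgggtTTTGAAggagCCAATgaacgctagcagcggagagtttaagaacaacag
Mybl2 (chr2:163054485-163054664, plus strand): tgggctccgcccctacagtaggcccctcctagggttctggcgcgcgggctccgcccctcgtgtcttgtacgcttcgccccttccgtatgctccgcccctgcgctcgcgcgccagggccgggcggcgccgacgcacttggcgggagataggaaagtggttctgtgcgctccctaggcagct
In the Ccnb2 window, CCAAT boxes began 87, 54 and 21 bases before the start and the homology region 5 bases after it; another lay 167 bases before the start, outside the printed stretch. Cdk1 held a homology region 15 bases before the start, a further one at 71 bases, CCAAT boxes at 48 and 80 bases read on the other strand as ATTGG, and the E2F match at 131 bases; another CCAAT box lay 208 bases before the start, outside the printed stretch. Cdc20 carried its homology region 18 bases before the start with CCAAT boxes at 53 and 8 bases. None of the letters searched occurred in the Mybl2 window. The E2F search took only the exact spellings given above, and a site spelled otherwise would be missed. The low E2F count and the Mybl2 window therefore do not show that such sites are absent.

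Estimated counts summed to between 17786758 and 22862396 per library, and levels are given as CPM, which are counts relative to the TMM-scaled size of the library. The limit that a count of 0 allows, 3 counts, was 0.12 to 0.173 CPM and covers counting error only. The alveolar and airway marker list summed to 23850 to 33420 CPM in lung and 3.36 to 8.76 CPM in the line, where Sftpd, Sftpa1, Slc34a2 and Scgb3a2 had no count in any library. There were 2 libraries that stood apart from the others of their group in the members: cell line replicate 1, and lung replicate 2 in a way that followed transcript length. Counts of members and cell cycle list genes that fell or rose are given with both, without cell line replicate 1, and without both. Immune transcripts were also present in the cell line libraries: the 14 B and plasma cell markers summed to 164, 148 and 87.7 CPM in replicates 1, 2 and 3 (292 to 566 in lung), and the 15 T cell markers to 33.3, 32.1 and 19.2 CPM (275 to 314 in lung). The part of such cells in the members' levels was not tested.

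The members formed 3 levels, not 2. Added together they took 1971, 1664 and 1519 CPM in lung replicates 1, 2 and 3 (1718 ± 231, SD, n = 3), 6971 and 7188 CPM in cell line replicates 2 and 3, and 874 CPM in cell line replicate 1. All 36 members were lower in cell line replicate 1 than in replicates 2 and 3 by more than 4-fold, against 2.93% of the 15212 tested genes, and 18.8% of tested genes were lower there by more than 1.5-fold. The ratio of replicate 1 to the mean of the other two ran from 0.0584 in Nuf2 (95% exact binomial interval 0.0466 to 0.0724, counting error only) to 0.235 in Nek2 (0.213 to 0.259), with a median of 0.118. This is a description of 1 library, with no test. Replicates 2 and 3 by contrast lay close together: their ratio ran from 0.942 to 1.11 with a median of 1.02, its counting interval held 1 in 24 members, and no member differed between them by 1.5-fold, where 14.5% of tested genes did. These shares of tested genes take in genes near the counting limit in the line, where counting error is wide. No background matched to the members for level was taken.

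For 31 of the 36 members every lung library lay above cell line replicate 1 and below replicates 2 and 3, an order found in 2.86% of tested genes. Tpx2 and Anln were lower in every lung library than in any cell line library. In Ube2c, Nek2 and Foxm1 the level of cell line replicate 1 fell within the range of the lungs. Since whole lung is a mixture, fewer cells of a dividing type and less RNA per cell cannot be told apart.

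**Figure D1:**
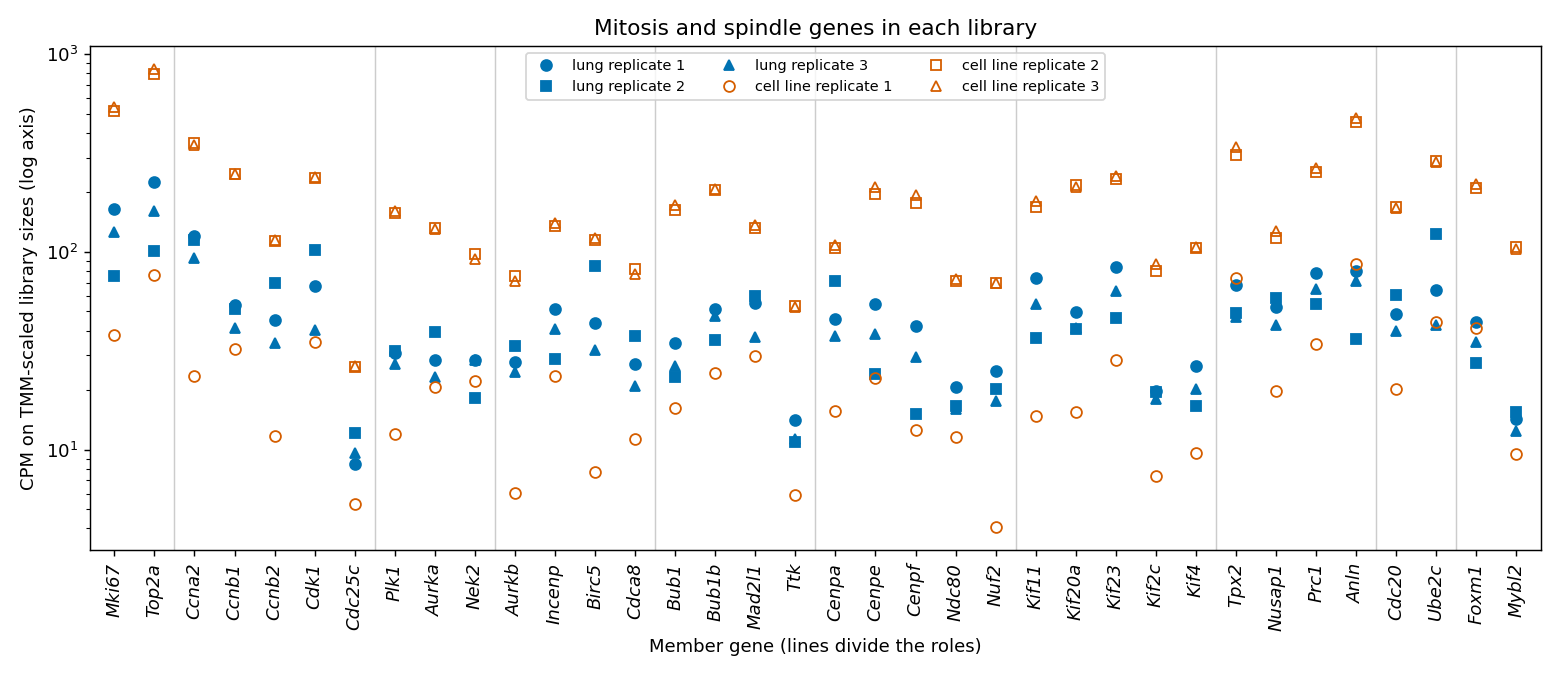
Level of each member in each library, in CPM on TMM-scaled library sizes (log axis), with lines dividing the roles; filled blue symbols are lung replicates and open orange symbols cell line replicates. Cell line replicates 2 and 3 overlie each other at the top, cell line replicate 1 lies at the bottom for most genes, and the lungs lie between them in 31 of 36.

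Among the markers used to score proliferation, Top2a, the topoisomerase that untangles sister chromosomes, had 225, 100.6 and 161 CPM in lung replicates 1, 2 and 3, and 76.3, 797 and 843 CPM in cell line replicates 1, 2 and 3. Mki67, which encodes the Ki-67 antigen coating mitotic chromosomes, had 164, 75.5 and 125.4 CPM in lung and 37.9, 514 and 540.3 CPM in the line. In both genes the lungs sat between the low and the high cell line libraries, and lung replicate 2 was the lowest lung.

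The cyclin-CDK genes shared that order. Cdk1, the kinase at the centre of mitotic entry, had 66.9, 102 and 40.5 CPM in lung and 35.2, 236 and 238 CPM in the line. Ccnb1, its main cyclin partner, had 54.0, 51.2 and 41.1 CPM against 32.4, 249 and 247 CPM. Ccnb2, whose promoter is printed above, had 45.3, 69.4 and 34.7 CPM against 11.7, 113 and 115 CPM. Cyclin A2 acts earlier, from S phase to the start of mitosis, and its gene Ccna2 was further from cell line replicate 1 than the B cyclins were: 121, 115 and 92.9 CPM in lung against 23.5, 354 and 348 CPM. Cdc25c, the phosphatase that activates Cdk1, was the least abundant of the role, with 8.43 to 12.2 CPM in lung and 5.32, 26.2 and 26.4 CPM in the line.

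Among the mitotic kinases, Plk1, which acts on centrosomes, kinetochores and the cleavage site, had nearly equal lung values of 30.7, 31.7 and 27.2 CPM, against 11.99, 157 and 161 CPM in the line. Aurka, the centrosome and spindle-pole kinase, had 28.5, 39.5 and 23.2 CPM in lung against 20.8, 133 and 131 CPM. Nek2, which helps to split the centrosomes, had 28.3, 18.2 and 28.5 CPM against 22.2, 97.05 and 92.0 CPM, so cell line replicate 1 lay inside the lung range. Of the 36 members Nek2 was the least reduced in that library.

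The chromosomal passenger complex corrects faulty attachments and later works at the midzone. Its kinase Aurkb had 27.9, 33.3 and 24.7 CPM in lung and 6.02, 75.85 and 71.5 CPM in the line. Birc5, the survivin subunit, varied most between lungs of the 4, with 43.7, 84.6 and 32.05 CPM, against 7.70, 115.5 and 118 CPM. Lung replicate 2 was thus the closest of the lungs to the high cell line libraries in Birc5. Incenp, the scaffold, had 51.7, 28.8 and 40.8 CPM in lung against 23.6, 135 and 139 CPM, and Cdca8 (borealin) 27.01, 37.6 and 21.1 CPM against 11.3, 81.6 and 77.2 CPM. Summed, this role had the highest ratio of lung to cell line replicates 2 and 3, at 0.371.

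The checkpoint genes stood at a lower share. Bub1, a kinase of the checkpoint, had 34.5, 23.4 and 26.4 CPM in lung and 16.2, 163 and 173 CPM in the line, and Bub1b (BubR1) had 51.4, 36 and 47.7 CPM against 24.3, 205 and 207 CPM. Mad2l1, the Mad2 protein that sequesters Cdc20, had 55.2, 60.0 and 37.35 CPM against 29.9, 132 and 137.5 CPM. Ttk, the Mps1 kinase that starts the signal, had 14.1, 10.9 and 11.3 CPM against 5.88, 53.05 and 52.8 CPM. Summed, the lungs were at 0.242 of cell line replicates 2 and 3.

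At the centromere and kinetochore, Cenpa, the histone H3 variant that marks centromeres, had 45.9, 71.5 and 37.6 CPM in lung against 15.7, 105 and 108 CPM in the line. It had the highest lung share of any member, 0.486 of cell line replicates 2 and 3. Ndc80 and Nuf2 encode partners in the complex that grips microtubules. Nuf2 had 24.9, 20.2 and 17.7 CPM in lung against 4.06, 69.6 and 69.3 CPM, and Ndc80 had 20.8, 16.6 and 16.05 CPM against 11.5, 71.65 and 72.9 CPM. The partners were therefore near equal in cell line replicates 2 and 3 but differed in replicate 1, where Nuf2 was 17.1-fold lower and Ndc80 6.27-fold lower. The long transcripts of Cenpe, a kinetochore motor, and Cenpf, a large kinetochore protein, had their lowest lung values in replicate 2: Cenpe had 54.25, 24.2 and 38.65 CPM in lung against 23.05, 197 and 213.5 CPM, and Cenpf 42.0, 15.1 and 29.5 CPM against 12.5, 176 and 195 CPM.

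All 5 kinesins had the common order. Kif23, the motor of the central spindle, had 84.4, 46.6 and 63.7 CPM in lung against 28.5, 235 and 243 CPM in the line. Kif11 (Eg5), which pushes the poles apart, had 73.7, 36.6 and 54.4 CPM against 14.75, 168 and 180.5 CPM. Kif20a, needed for cytokinesis, had 49.9, 40.95 and 41.4 CPM against 15.5, 219 and 214 CPM. Kif2c, which takes microtubules apart at centromeres, had the narrowest lung values, 19.7, 19.6 and 17.97 CPM, against 7.37, 80.5 and 86.8 CPM. Kif4, a chromosome-bound motor, had 26.6, 16.6 and 20.3 CPM against 9.66, 104 and 106 CPM.

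Among the spindle, midzone and furrow genes, Tpx2, which activates Aurka and nucleates spindle microtubules, had 68.3, 48.9 and 46.9 CPM in lung against 73.4, 311 and 339 CPM in the line. Anln (anillin), a scaffold of the cleavage furrow, had 80.0, 36.5 and 71.5 CPM against 86.4, 455 and 476 CPM. In these 2 genes even cell line replicate 1 lay above every lung. Prc1, which bundles midzone microtubules, had 78.6, 54.75 and 64.8 CPM in lung against 34.25, 254 and 265 CPM, and Nusap1, a spindle-associated protein, 52.7, 58.7 and 42.9 CPM against 19.7, 118 and 127 CPM, both in the common order. The summed role was at 0.182 of replicates 2 and 3 in cell line replicate 1, the highest of the 10 roles, and the proliferation markers were lowest at 0.0848.

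Cdc20 and Ube2c bring substrates and ubiquitin to the anaphase-promoting complex. Cdc20 had 48.6, 60.85 and 39.8 CPM in lung against 20.25, 168 and 167 CPM in the line. Ube2c had 64.3, 124 and 42.85 CPM in lung against 44.4, 287 and 285 CPM, so the level of cell line replicate 1 lay just above the lowest lung. Per kilobase of transcript, Ube2c was the highest member in lung, with 66.4, 127.5 and 44.2 CPM per kilobase in replicates 1, 2 and 3. The next places depended on the library: in replicate 2 they went to Cdk1 (77.9) and Birc5 (76.2), in replicate 1 to Cdk1 (51.0) and Top2a (45.55), and in replicate 3 to Top2a (32.6) and Ccna2 (31.5). Cenpf was lowest in each lung, at 3.80, 1.36 and 2.67 CPM per kilobase. In cell line replicates 2 and 3 the highest members were again Ube2c with 295 and Cdk1 with 181 CPM per kilobase, then Top2a with 166.

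The 2 transcription factors had the lowest lung share of the 10 roles when summed, 0.155 of cell line replicates 2 and 3. Mybl2 had 14.2, 15.5 and 12.4 CPM in lung against 9.47, 106.5 and 104 CPM in the line. Foxm1 had 44.3, 27.55 and 35.1 CPM against 41.0, 209.5 and 219.9 CPM. Mybl2 in cell line replicate 1 was thus below every lung, while Foxm1 in that library lay between the lungs.

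With all 6 libraries in the edgeR quasi-likelihood test, the log2 fold change (lung minus cell line) was negative in all 36 members, from -2.44 in Anln to -0.56 in Cenpa, with a median of -1.52 where all tested genes had a median of 0.08. At an adjusted p below 0.05, 7 members (19.4%) fell and 0 rose. Of all tested genes 17.5% fell and 31.3% rose, so the share of members that fell was near that background. No member was higher at an unadjusted p under 0.05 and 16 were lower. DESeq2 called 22 lower and 0 higher, among 8160 genes called in either direction, and limma-voom 3 and 0, among 7420. The share of all tested genes was not taken for the unadjusted count, nor by direction for these tools. These counts are therefore not set against a background. The 7 were Tpx2 (-2.14, SE 0.54, adjusted p 0.0115), Anln (-2.44, SE 0.63, adjusted p 0.0132), Foxm1 (-2.14, SE 0.58, adjusted p 0.0161), Mybl2 (-2.38, SE 0.75, adjusted p 0.0292), Nek2 (-1.49, SE 0.52, adjusted p 0.0438), Ccnb1 (-1.85, SE 0.65, adjusted p 0.0454) and Bub1 (-2.06, SE 0.73, adjusted p 0.0461).

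Without cell line replicate 1, 35 of 36 members fell, against 19.0% of 15665 tested genes that fell and 33.1% that rose, and the median member change was -2.01. Mybl2 was lowest (-2.92, SE 0.21, adjusted p 0.000463) and Cenpa nearest to 0 (-1.05, SE 0.31, adjusted p 0.0333). Plk1 (-2.43, SE 0.20) and Kif2c (-2.14, SE 0.19), which were even between lungs, had among the smallest errors. Birc5 was the exception (-1.14, SE 0.42, adjusted p 0.0663). With lung replicate 2 left out as well, all 36 fell, Birc5 included (-1.62, SE 0.16, adjusted p 0.00037), while 35.2% of 15404 tested genes fell and 43.2% rose.

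Set against cell line replicate 1 alone, with the spread taken from the 3 lungs and the lone library assumed to vary like them, the direction turned in 33 of 36 members and the median was 1.01. Here 5 members rose: Birc5 (2.72, SE 0.72, adjusted p 0.0413), Nuf2 (2.30, SE 0.46, adjusted p 0.0175), Aurkb (2.18, SE 0.44, adjusted p 0.0176), Ccna2 (2.16, SE 0.47, adjusted p 0.0221) and Ccnb2 (2.03, SE 0.56, adjusted p 0.0469). No member fell, and none was lower at an unadjusted p under 0.05. Among all 16236 genes tested in that fit 5.68% fell and 20.3% rose. Tpx2 (-0.49, SE 0.42), Anln (-0.52, SE 0.54) and Foxm1 (-0.26, SE 0.43) kept a negative sign and did not pass the test. Which cell line libraries enter therefore sets the sign of the estimate for most members, and the positive sign rests on the lone library.

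**Figure D2:**
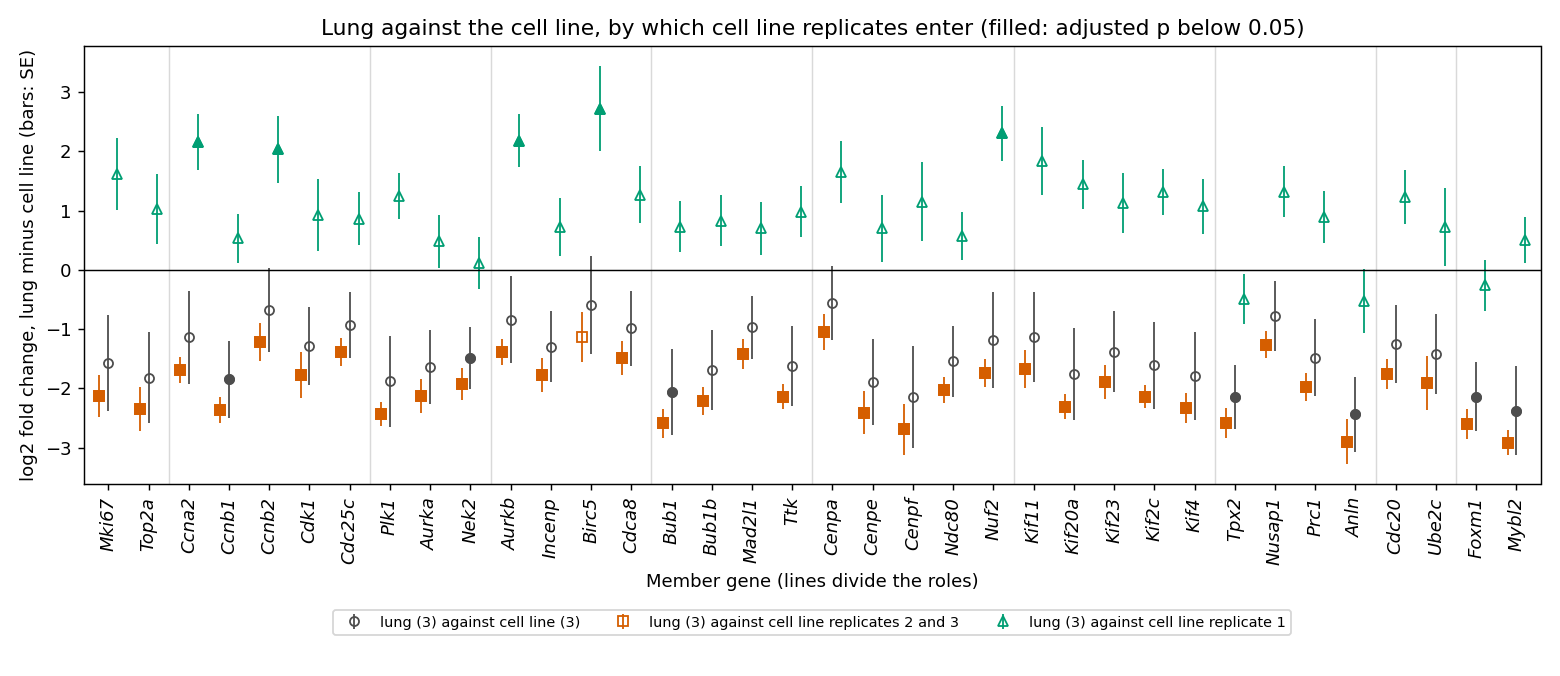
Log2 fold change of each member, lung minus cell line, with SE as bars, for lung against all 3 cell line libraries (grey circles), against replicates 2 and 3 (orange squares) and against replicate 1 (green triangles); filled symbols passed adjusted p below 0.05. The orange values lie below 0 with short bars for 35 called members, the grey ones have long bars and 7 calls, and the green ones lie above 0 in 33 of 36.

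The summed member level gave the same reading. The ratio of the lung mean to the cell line mean was 0.343 (log2 -1.54). The test compared the mean log2 sums of the groups, not that ratio. Their difference was not distinguishable from the spread between libraries (exact permutation test, two-sided, p = 0.4, 3 against 3, where p cannot go below 0.1). Without cell line replicate 1 the ratio was 0.243 and every lung lay below both cell line libraries, with p = 0.1 in the exact permutation test, the smallest that 3 against 2 allows. Against replicate 1 alone the ratio was 1.97 and all 3 lungs lay above it, with an exact permutation p of 0.25, again the smallest possible.

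The lungs differed among themselves by transcript length. The ratio of lung replicate 2 to the mean of replicates 1 and 3 ran from 0.422 in Cenpf, whose transcripts average 11061 bases, to 2.31 in Ube2c, at 969 bases. All 8 members over 4000 bases were lower in lung replicate 2 (ratios 0.422 to 0.71), and all 10 under 2000 bases were higher (1.26 to 2.31). Spearman's rho between length and that ratio was -0.89 over the 36 members and -0.80 over the 14475 tested genes above 1 CPM in lung, so the members followed a trend of the whole library. These are correlations across genes of the same 3 libraries and carry no test. The ratio of cell line replicate 1 to replicates 2 and 3 had a rho of -0.11 with length. The lung share of the level in cell line replicates 2 and 3 had a rho of -0.64 with length, and of -0.33 without lung replicate 2, so the high shares of Birc5, Ccnb2 and Cenpa and the low share of Cenpf rest partly on that library: without it the shares were 0.325, 0.350, 0.393 and 0.193, in place of 0.458, 0.436, 0.486 and 0.156.

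**Figure D3:**
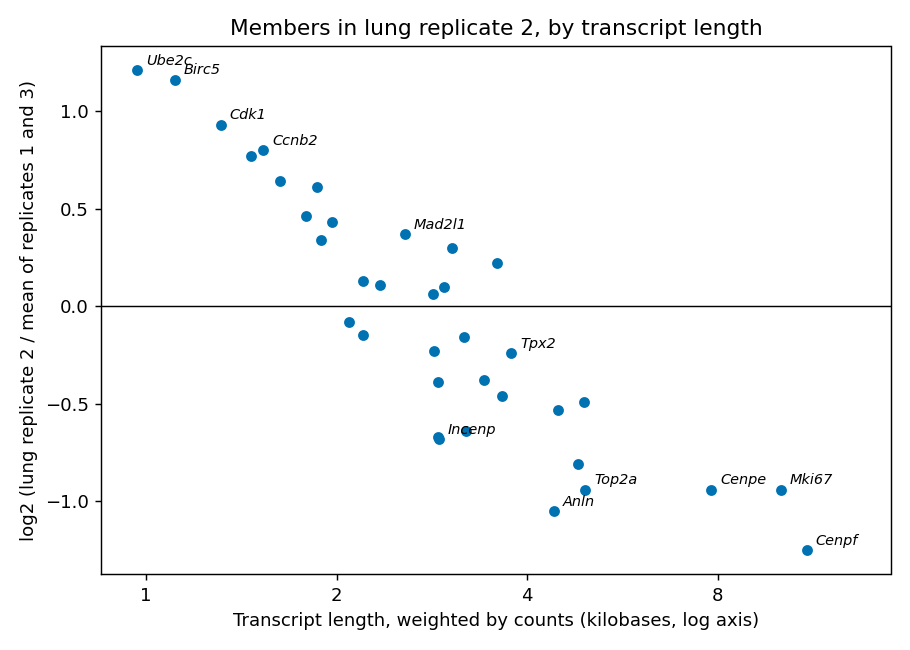
Ratio of lung replicate 2 to the mean of lung replicates 1 and 3 (log2, vertical axis) against transcript length in kilobases (log axis), one point per member. Short transcripts such as Ube2c lie above 0 and long ones such as Cenpf and Mki67 below it.

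Some marker lists also differed in lung replicate 2: the 7 erythroid markers summed to 2093 CPM there against 516 and 1126 CPM in replicates 1 and 3. The 8 neutrophil markers summed to 336.5 against 182.5 and 219 CPM, and the 12 fibroblast and mural markers to 1260 against 2980 and 3184 CPM. The 15 T cell markers differed little, at 314 against 300.5 and 275 CPM. The trend with transcript length covered the whole library, and its part in these shifts was not tested. In cell line replicate 1 the macrophage list summed to 140 CPM against 261 and 234 CPM. Mrc1 alone, at 31.3 against 163 and 172.5 CPM, differed by more than the whole sum did. Of the 13 markers, 5 were higher in that library by more than 1.5-fold and 2 lower, with a median ratio of 1.46. The part of these cells in the members' levels was not tested.

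The low level of cell line replicate 1 reached other cell cycle genes, but not evenly. Of 90 further mitotic genes, which were listed without the 36 members, 83 were lower there by more than 1.5-fold and 59 by more than 4-fold (18.8% and 2.93% of all tested genes), and their summed level was 0.3 of replicates 2 and 3, compared with 0.123 for the members. With 6 libraries 24 of the 90 fell (26.7%, against 17.5% of all tested genes) and 1 rose, and without cell line replicate 1 the counts were 75 and 1 (19.0% of all tested genes fell). The counts became 87 and 1 with lung replicate 2 left out as well (35.2% of all tested genes fell). Rad21, the cohesin subunit that separase cuts, fell (-1.10, SE 0.36, adjusted p 0.0344), as did Ckap5, a microtubule polymerase (-1.88, SE 0.42, adjusted p 0.00697). The gene that rose was Pttg1 (securin, the inhibitor of separase), with 26.3, 55.4 and 25.1 CPM in lung and 10.4, 8.76 and 9.43 CPM in the line (1.90, SE 0.36, adjusted p 0.0029). A further 2 mitotic genes, picked out after their values were seen, were level across the line: Zwint, a kinetochore protein, had 193, 193 and 191 CPM in the 3 cell line libraries and 56.6 to 69.75 CPM in lung, and the cohesin gene Stag2 had 251, 247 and 265 CPM against 64.4 to 142 CPM.

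Of the anaphase-promoting complex itself, 15 genes were tested. With 6 libraries 3 fell (20.0%, near the 17.5% of all tested genes) and 0 rose. Without cell line replicate 1, 6 fell (against 19.0% of all tested genes) and 0 rose. With lung replicate 2 left out as well, 10 fell (against 35.2%) and 0 rose. None was lower by 4-fold in cell line replicate 1, where the partners of the complex, Cdc20 and Ube2c, were 8.27-fold and 6.44-fold lower. Anapc1, its largest subunit, had 418.5, 411 and 431 CPM in the line and 143.5, 69.4 and 136.5 CPM in lung (-1.85, SE 0.33, adjusted p 0.00213), and Cdc27 also fell (-1.34, SE 0.29, adjusted p 0.00536). Of 13 MuvB and DREAM genes, which include Foxm1 and Mybl2, 6 fell (46.2%, against 17.5%) and 0 rose, and the counts were the same without cell line replicate 1. Leaving out lung replicate 2 as well, 8 fell (against 35.2%) and 2 rose (against 43.2%). Tfdp1, the partner of E2F factors, had 139, 266 and 276 CPM in the line and 72.5 to 88.6 CPM in lung (-1.48, SE 0.32, adjusted p 0.00539). The 5 MuvB subunits of the list, described after their values were seen, differed in the line: Lin9 had 13.1, 41.4 and 42.7 CPM and Lin54 29.1, 43.25 and 46.4 CPM, while Lin37 had 12.3, 10.5 and 9.27 CPM and Lin52 16.6, 10.4 and 8.59 CPM, and Rbbp4 had 266, 309.9 and 314 CPM.

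DNA replication genes, the S phase counterpart of the members, were lower in cell line replicate 1 by more than 1.5-fold in 42 of 42 and by more than 4-fold in 21. With 6 libraries 11 fell (26.2%, against 17.5% of all tested genes) and 0 rose, and without that library 36 fell (against 19.0%). When lung replicate 2 was left out too, 41 fell (against 35.2%) and 0 rose. Rrm1, a subunit of ribonucleotide reductase, had 76.2, 416 and 424 CPM in the line and 78.5 to 109.7 CPM in lung (-1.73, SE 0.58, adjusted p 0.0375), and Mcm7, of the replicative helicase, 104, 271 and 272 CPM against 66.5 to 84.4 CPM (-1.48, SE 0.39, adjusted p 0.0139). The ratio of the summed members to the summed replication genes was 1.20, 0.944 and 1.16 in lung, 1.38 and 1.43 in cell line replicates 2 and 3, and 0.676 in cell line replicate 1. In the low library the members were thus further down than the replication genes. Between lung and cell line the log2 ratio differed by -0.01 (exact permutation test, p = 1.0), and by -0.36 without cell line replicate 1 (p = 0.1, the smallest possible in the exact test).

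Among the 12 G1 and G1/S genes 5 fell (41.7%, against 17.5% of all tested genes) and 1 rose. Without cell line replicate 1, 7 fell (against 19.0% of all tested genes) and 1 rose. The counts were 9 and 2 with lung replicate 2 left out as well, against 35.2% and 43.2% of all tested genes. Ccnd1, cyclin D1, had 756, 1673 and 1694 CPM in the line and 246 to 397 CPM in lung (-2.02, SE 0.41, adjusted p 0.00386). Its kinase Cdk4 was level across the cell line libraries, at 512, 502 and 499 CPM, and fell in lung (-1.19, SE 0.36, adjusted p 0.024). E2f2 rose (1.47, SE 0.38, adjusted p 0.0135), with 30.8 to 42.2 CPM in lung and 6.72, 17.8 and 16.3 CPM in the line. Of 16 genes tied to leaving the cycle, 6 rose (37.5%) and 2 fell (12.5%), near the 31.3% and 17.5% of all tested genes. Without cell line replicate 1, 7 rose and 1 fell, against 33.1% and 19.0% of all tested genes. Leaving out lung replicate 2 as well, 11 rose and 4 fell, against 43.2% and 35.2% of all tested genes. The sum of the 16 in cell line replicate 1 was 1.17 times that of replicates 2 and 3. Gas6, a secreted ligand of TAM receptors, had 175 to 248.5 CPM in lung and 1.497 to 1.82 CPM in the line, and Klf2, a quiescence-associated factor, 110 to 163 CPM against 17.0 to 48.7 CPM. Both rose (Gas6 adjusted p 1.18e-05, Klf2 adjusted p 0.00529). Cdkn2b, the CDK4 and CDK6 inhibitor p15, fell (-1.71, SE 0.39, adjusted p 0.00718), with 169, 86.45 and 87.2 CPM in the line. The CDK inhibitors of the list, looked at together after their values were seen, did not move as a group within the line: Cdkn1a (p21) had 24.6, 11.35 and 14.3 CPM there and 62.9 to 80.8 CPM in lung, and Cdkn2c (p18) had 6.07, 20.45 and 23.4 CPM in the line. Cdkn2a had 236.5, 250 and 246 CPM and Cdkn2d 11.85, 22.75 and 21.3 CPM in the line. Cdkn1b had 109, 73.4 and 73.3 CPM in the line. Cdkn1c was near the counting limit there, at 0.233, 0.0576 and 0.263 CPM, and had 20.6 to 21.9 CPM in lung.

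**Figure D4:**
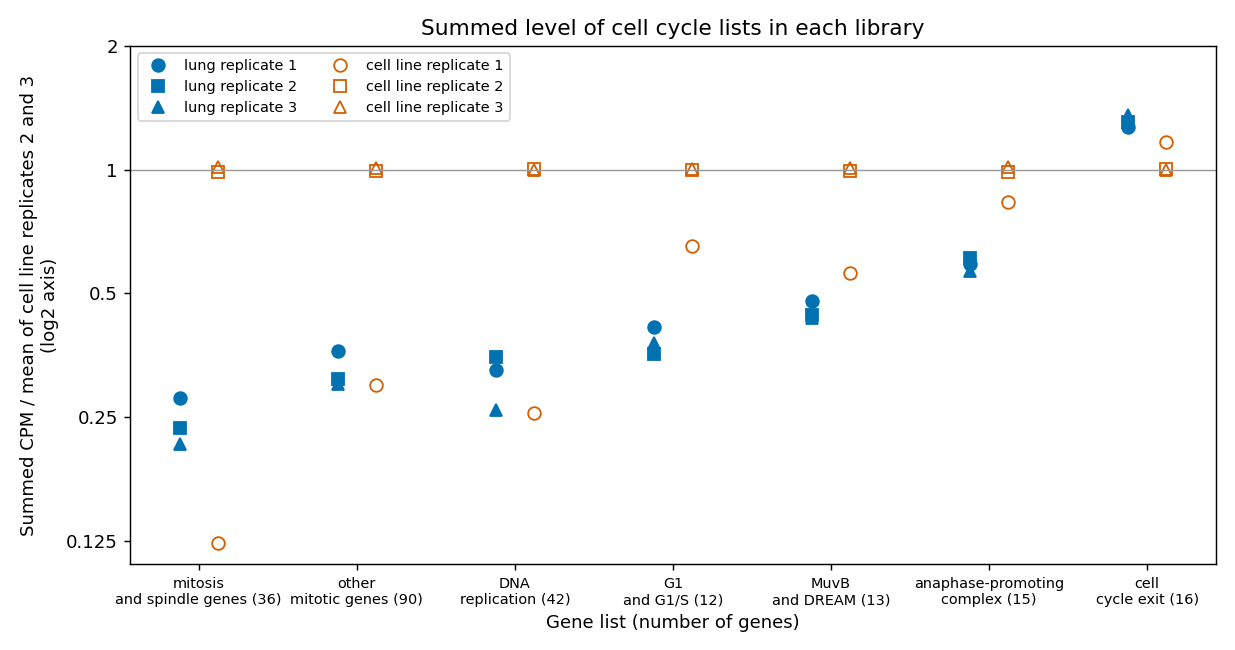
Summed CPM of each cell cycle list in each library, divided by the mean of cell line replicates 2 and 3 (log2 axis), with the number of genes in brackets. Cell line replicate 1 (open circle) is lowest for the mitosis and spindle genes at 0.123, near 0.3 and 0.256 for the other mitotic and the replication genes, and 0.833 for the anaphase-promoting complex.

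Presence of the homology region did not separate the members by level. The median ratio of cell line replicate 1 to replicates 2 and 3 was 0.118 in the 21 members with it and 0.121 in the 8 without, a group that includes Mybl2, and the median lung share of replicates 2 and 3 was 0.231 and 0.283. Over the whole table, members left out, 7.99% of the 663 tested genes with both a homology region and a CCAAT box were lower by more than 4-fold in cell line replicate 1, against 1.77% of the 6100 with neither. These are counts of letters in a window, with no test, and draw nothing about binding.

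Transcript use was mostly shared between lung and line. The 36 members had 179 transcripts in the table, and 35 had the same leading transcript in lung and in cell line replicates 2 and 3; in 21 the leading transcript held 90% or more of the counts in lung. Among the differences, which are descriptions of estimated counts, Incenp-201 held 46.0%, 48.4% and 41.9% of Incenp in lung replicates 1, 2 and 3, and 69.8%, 64.5% and 61.4% in cell line replicates 1, 2 and 3. Prc1-208, a shorter coding transcript, held 12.5%, 27.4% and 8.29% of Prc1 in lung against 0.562%, 0.829% and 0.725% in the line. In both, the lungs and the cell line libraries did not overlap. They were picked from the 179 transcripts for their differences, and the share of all transcripts without overlap was not taken. Tpx2-207 held 33.4%, 14.0% and 27.9% of Tpx2 in lung against 11.1%, 10.8% and 8.21%, with lung replicate 2 close to the line. Tpx2-201 held 7.11%, 0% and 8.34% in lung and 5.98%, 19.3% and 17.9% in the line, where replicate 1 thus lay with the lungs. Reads can also be split between a gene and its processed pseudogenes: Ccnb1-ps held 3 counts over the 6 libraries, 0.0231% of the Ccnb1 counts, and Ccnb2-ps held 14, 0.180% of those of Ccnb2.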

How the data were processed

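The authors deposited a table of estimated counts, with 1 row per transcript and 1 column for each of the 6 samples. The submitters' processing notes name Salmon 1.4.0, FastQC 0.11.9, DESeq2 1.32.0 and the build GRCm39; what DESeq2 was used for, the annotation release and any filter are not stated there. Per the labels' protocols, lungs were digested with collagenase and libraries made with a stranded mRNA kit. Of 76776 transcripts, 76521 (99.67%) matched GENCODE M21, an annotation of another build used for names and lengths only, and were summed to 20687 symbols; 19 symbols joined more than 1 gene identifier. The other 255 transcripts, 0.11% to 0.42% of a library, stayed out. Promoter coordinates are those of the RefSeq table.

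Sums were rounded and tested with edgeR 4.0.16 in R 4.3.3 (quasi-likelihood F test, robust, TMM, filterByExpr by group, group only) with Benjamini-Hochberg adjustment over all genes tested, and every adjusted p is from that test unless another tool is named. SE is the fold change divided by the square root of F. Sums were compared on the log2 scale by exact permutation tests, two-sided. Length is the count-weighted annotated transcript length. Alternatives used other scalings and filters, DESeq2 1.42.0, limma 3.58.1 (voom), a length offset, the replicate number as a block, and libraries left out. The test was tried on simulated data. Members, lists and tests were chosen with earlier results of these data known. All members are given by role; from each other list come the 2 called genes with the highest level in the main direction and the strongest call in the opposite direction, unless said otherwise.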

Additional observations from a re-analysis of the deposited data

How the results depend on the processing

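Against 7 members lower in lung and 7422 genes called in either direction, library size alone gave 4 and 6938. With no filter on low counts there were 14 and 8152, and with 10 or more counts in all 6 samples 3 and 4256. DESeq2 gave 22 and 8160, and limma-voom 3 and 7420. The length offset gave 8 and 9405, with a median member change of -1.54. Library size alone moved the median of all genes by 0.23 and that of the members to -1.27. The replicate numbers showed no sign of pairing the samples (correlations of same-numbered deviations -0.042, 0.082 and -0.083). With so few libraries these correlations cannot exclude it. With the replicate block 4 members were lower, among 7160 genes called in either direction. Birc5 turned to 0.06 in limma-voom. With libraries left out, singly or as the pairs given in the report, members lower ranged from 0 to 36, members higher from 0 to 5 and genes called from 4225 to 12082. Over the same fits the median member change ranged from -2.01 to 1.01, the log2 ratio of the summed level from -2.04 to 0.98, and that relative to DNA replication genes from -0.36 to 0.70. Log2 fold changes ranged from -2.35 to 1.03 in Top2a, -2.38 to 0.53 in Ccnb1, -2.14 to 0.92 in Cdk1, -2.35 to 0.48 in Aurka, -2.59 to 0.73 in Bub1, -1.54 to 0.70 in Mad2l1, -1.35 to 1.65 in Cenpa, -1.89 to 1.13 in Kif23, -1.62 to 2.72 in Birc5, -2.41 to 0.72 in Ube2c, -1.93 to 0.11 in Nek2 and -2.98 to 0.50 in Mybl2. Leaving out lung replicate 1, 2 or 3 left 3, 2 and 3 members lower, among 6080, 8921 and 6507 genes called in either direction. Leaving out cell line replicate 2 or 3 left 3 each, among 6190 and 6111. Tpx2 and Anln were among the members lower in each of these 5 fits. The share of all tested genes that fell was not taken for these 5 fits, the replicate block or the other scalings, filters and tools. Their member counts are therefore not set against a background. For 15 of the members, among them the 7 called with all 6 libraries, single values were followed over the alternatives. Of these values 170 kept direction and side of the threshold, 38 lost it, 19 gained it and 13 reversed. With 3 libraries a group, a member that misses the threshold may still differ.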
